A study of Hemigymnus melapterus and Thalassoma lunare and Coris batuensis with 46 samples.

Results

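The forebrain of Hemigymnus melapterus, a wrasse that the labels call a facultative cleaner, was compared with that of Labrichthys unilineatus, which they call a non-cleaner. The libraries were chosen by the species and sample number in their labels: 9 of the 10 Hemigymnus libraries and all 8 Labrichthys libraries, 17 of the 46 in the series, 1 per fish. Hemigymnus sample 4 was left out because of its low complexity, a choice made from the counts themselves. It held 6936 counts on 1676 ENSONIT transcripts, where the other 9 held 18301 to 38807 counts on 5205 to 8351 transcripts. All fish were females, and the labels give no age and no experimental treatment. Each library came from 1 slice of 300 µm through the pallial areas Dl and Dm with parts of the septal and striatal territories, from heads kept in RNAlater, the fish having died 6 to 28 minutes after capture. The other 29 libraries are the left-out Hemigymnus fish and 28 fish of Halichoeres melanurus and Thalassoma lunare (facultative cleaners) and Coris batuensis (non-cleaner). Of these 28, the library labelled Halichoeres sample 2 was closer to the mean of Thalassoma (r = 0.935) than to that of its own species (0.709), and the library labelled Thalassoma sample 4 was closer to Halichoeres (0.948) than to its own (0.738), in ENSONIT log2 CPM across transcripts. The other 26 were closest to their labelled species. Both libraries were used under their labels unless stated.

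Facultative cleaners pick parasites off other fish for part of their food and otherwise eat small invertebrates. Hemigymnus melapterus, the blackeye thicklip wrasse, feeds mainly on invertebrates sifted from sand and is known to clean mostly when young. Labrichthys unilineatus, the tubelip wrasse, feeds on live coral and belongs to the same branch of the wrasses as the dedicated cleaners of the genus Labroides. Dl and Dm are regarded as the fish counterparts of the hippocampus and of the basolateral amygdala, regions tied to memory and to learning about reward and threat. Cleaning status and species are the same split here, so a difference between these fish cannot be told apart from any other difference between the species. A difference in counts can also reflect the mix of cells in the slice, RNA per cell or how well the reads of a species match the reference, and these cannot be told apart in bulk libraries.

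The same fish were counted on transcripts with ENSONIT identifiers and again on genes with Ldim_g identifiers. The files do not pair either kind with a gene name, so tissue markers and pathways were not examined here and 2 identifiers per direction are named. Levels below are in CPM, the count scaled to a common total of the tested features. A single count corresponded to 61.8 CPM in a library with the median total of tested ENSONIT counts.

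More ENSONIT counts were held by the Labrichthys than by the Hemigymnus libraries on average, while the difference in total reads was not past the threshold. ENSONIT counts ran from 18301 to 38807 in Hemigymnus (median 26004) and from 26996 to 53987 in Labrichthys (median 35316), so the ranges overlapped. The means were 26996 ± 7518 (SD, n = 9) and 37892 ± 10279 (SD, n = 8), a two-sided exact permutation test giving p = 0.0248 (adjusted p = 0.0402 by Benjamini-Hochberg over 13 library measures). By medians the difference of -9312 counts was not past the threshold (exact permutation adjusted p = 0.0761). Total reads in the Ldim_g tables were 565145 ± 161554 (SD, n = 9) and 762158 ± 206735 (SD, n = 8), exact permutation adjusted p = 0.0584. Detected transcripts followed the same order, Hemigymnus having 6600 ± 1122 (SD, n = 9) and Labrichthys 8113 ± 1026 (SD, n = 8), exact permutation adjusted p = 0.0237. Once every library was thinned to 18301 counts the means were 5292 ± 241 and 5479 ± 114 transcripts, and the difference was not past the threshold (exact permutation adjusted p = 0.0704). For Ldim_g genes thinned to 19597 counts it was, Hemigymnus having 3612 ± 149 genes (SD, n = 9) and Labrichthys 3821 ± 199 (SD, n = 8) (exact permutation adjusted p = 0.0402).

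The Ldim_g tables also record what happened to reads that were not counted in a gene, and in these shares the species stood almost apart. Unaligned reads made up 48.8% to 52.5% of a Hemigymnus library (median 51.8%) and 45.4% to 49.0% of a Labrichthys library (median 46.7%). All Hemigymnus fish but sample 1, at 48.8%, lay above every Labrichthys fish. The means were 51.4% ± 1.16 (SD, n = 9) and 47.0% ± 1.21 (SD, n = 8), exact permutation adjusted p = 0.00107. Reads aligned outside any gene went the other way, at 40.9% ± 1.18 (SD, n = 9) and 44.2% ± 1.12 (SD, n = 8), exact permutation adjusted p = 0.00143. The shares of a library sum to 100%, most of it unaligned or outside genes, so these opposite differences are tied and not separate results. Reads with a low alignment quality were the measure in which the fish of the species did not overlap, at 2.43% to 2.82% in Hemigymnus and 2.84% to 3.47% in Labrichthys. The exact permutation p of 8.23e-05 for that share is the smallest that 9 fish against 8 can give (adjusted p = 0.00107). The left-out Hemigymnus sample 4 had 4.40%, above every Labrichthys fish, and with it the difference was not past the threshold (exact permutation adjusted p = 0.0743). The share counted in genes was for Hemigymnus 5.14% ± 0.431 (SD, n = 9) and for Labrichthys 5.53% ± 0.552 (SD, n = 8), with no difference past the threshold (exact permutation adjusted p = 0.128). The part of these shares in the expression differences below was not tested.

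**Figure D1:**
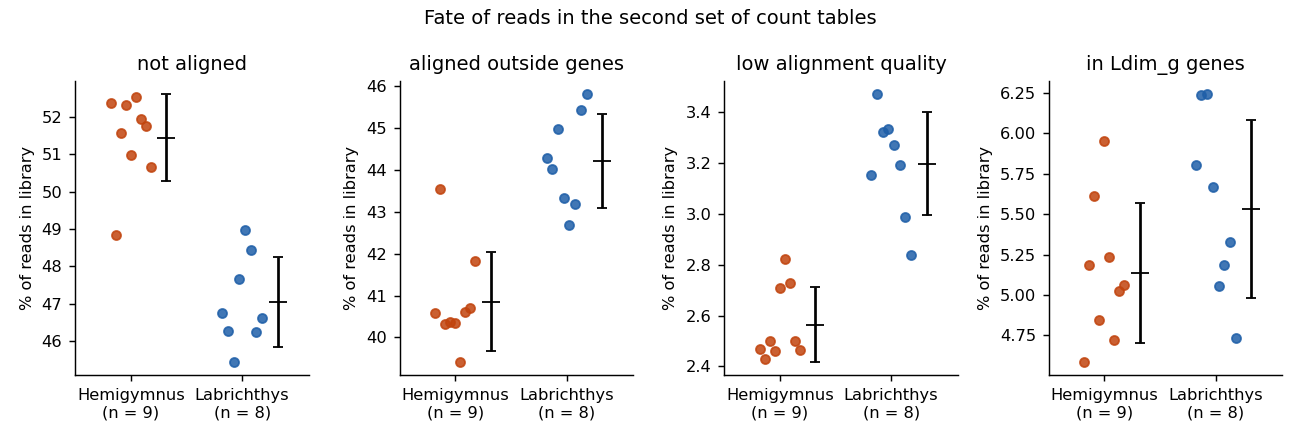
Shares of all reads in the Ldim_g tables (percent, vertical axes starting above 0) for each of 9 Hemigymnus and 8 Labrichthys libraries, with mean and SD in black. Hemigymnus sample 4, at 4.40% low-quality reads, is not drawn. Without it the low-quality shares do not overlap (2.43% to 2.82% against 2.84% to 3.47%), and 1 Hemigymnus library, at 48.8%, reaches into the Labrichthys range of unaligned reads.

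The fish fell into their labelled species without exception. In both sets of counts each of the 17 libraries was closest to its own species, when set against the mean of each of the 5 species without itself. For this step alone the Hemigymnus mean took in the left-out sample 4. In the ENSONIT set the correlation with the own species ran from 0.902 to 0.962 and that with the next species from 0.736 to 0.787 (Pearson r across transcripts, which are not independent replicates). The left-out Hemigymnus sample 4 reached 0.552 with its own species. Pairs of Hemigymnus libraries had r from 0.801 to 0.929, pairs of Labrichthys libraries from 0.846 to 0.939, and pairs across the species from 0.562 to 0.679. On log2 CPM, 55.8% of the variance between ENSONIT libraries and 63.7% of that between Ldim_g libraries lay between the species. Features with enough counts in a single species were included. These shares and the lower r across the species can follow in part from that choice of features. The fish within a species varied to a like degree, with a biological coefficient of variation of 0.213 in Hemigymnus and 0.216 in Labrichthys for ENSONIT transcripts, and 0.188 and 0.197 for Ldim_g genes.

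**Figure D2:**
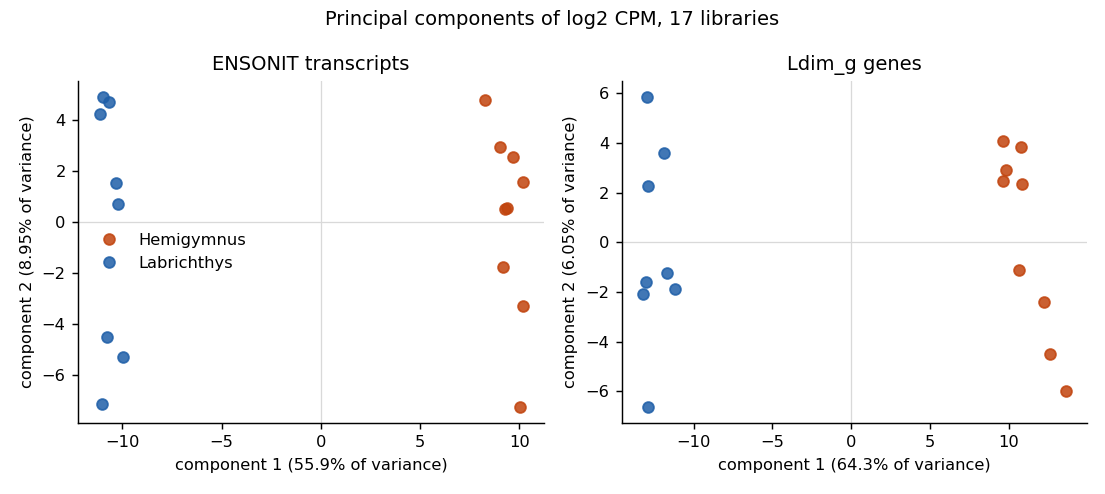
First and second principal components of log2 CPM for ENSONIT transcripts (left) and Ldim_g genes (right), 1 point per library. The first component, with 55.9% and 64.3% of the variance, separates the 9 Hemigymnus from the 8 Labrichthys libraries, and the second, with 8.95% and 6.05%, spreads the fish within each species. Features with enough counts in a single species were included, so the share on the first component can follow in part from that choice.

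Among transcripts with enough counts, close to equal numbers were higher and lower in Hemigymnus. Of 450 ENSONIT transcripts with enough counts to be tested, 193 (42.9%) were past the threshold, a Benjamini-Hochberg adjusted p of 0.05 in edgeR's quasi-likelihood test, 89 (19.8%) higher and 104 (23.1%) lower in Hemigymnus. The larger side depended on the scaling, with 103 higher and 88 lower under upper-quartile scaling. Without a filter on low counts 1499 of 21501 transcripts (6.97%) were past the threshold, 534 higher and 965 lower. Most of the 193 differences were moderate, 109 of them being smaller than 2-fold. The other 84 (18.7% of the 450 tested) were at least 2-fold, 45 (10%) higher and 39 (8.67%) lower. The median log2 fold change was 1.07 for the transcripts called higher and -0.84 for those called lower, beside -0.03 over all tested transcripts. The scaling between libraries centres the fold changes near 0, so close to equal numbers on each side follow in part from it. At the far end, 19 were higher and 16 lower by at least 2 on the log2 scale, and 9 and 10 by at least 3. Every transcript with a fitted change of at least 2-fold was past the threshold.

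The transcripts that differed carried 27.0% of all ENSONIT counts in Hemigymnus and 26.7% in Labrichthys, and all tested transcripts carried 54.6% and 52.9%. Of the tested counts they held 49.4% and 50.4%, beside the 42.9% of tested transcripts that they make up. The 89 transcripts that were higher in Hemigymnus held 26.4% of the tested counts there and 12.9% in Labrichthys. The 104 that were lower in Hemigymnus held 22.9% there and 37.5% in Labrichthys. The 10 most abundant transcripts of each species shared 6 members and the same leading transcript, which took 1.504% of counts in Hemigymnus and 1.882% in Labrichthys. Of the 14 transcripts in either list, 4 were called higher and 7 lower in Hemigymnus, and 2 differed by at least 2-fold. Over all tested transcripts, 42.9% were called and 18.7% were called with at least a 2-fold change.

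Differences of at least 2-fold were found mostly among the less abundant of the tested transcripts. Ordered by mean log2 CPM, the lowest 150 of the 450 held 60 calls (40%), the middle 150 held 69 (46%) and the highest 150 held 64 (42.7%). Their median absolute log2 fold changes were 1.39, 0.87 and 0.57, and 42, 29 and 13 of them were at least 2-fold. The precision of low counts sets the smallest change that can be called there, so the order of the medians describes the calls and not all transcripts. Every tested transcript with a fitted change of at least 2-fold was called, so the 42, 29 and 13 cover all tested transcripts of that size. The filter on low counts, however, keeps a transcript that has enough counts in a single species. The least abundant tested transcripts, down to a mean of 420.3 CPM, could thus enter by being high in one species and low in the other. The order of 42, 29 and 13 therefore follows in part from the filter.

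Full separation of the fish was less common than a call. In 59 transcripts (13.1% of those tested) every fish of one species lay above every fish of the other, in 30 (6.67%) with Hemigymnus above and in 29 (6.44%) with Labrichthys above. With the left-out Hemigymnus sample 4 included, 35 transcripts separated all fish. All 59 were past the threshold, their absolute log2 fold changes having a median of 2.35 and a minimum of 0.63. The other 134 calls rested on shifted levels with some overlap between fish.

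The Ldim_g counts of the same fish gave the same balance with more calls. The same scaling centres these fold changes near 0 (median log2 fold change -0.01), so the balance follows in part from it here too. Of 491 genes tested, 296 (60.3%) were past the threshold, 144 (29.3%) higher and 152 (31%) lower in Hemigymnus. At least 2-fold differences were found in 135 genes (27.5%), 63 higher and 72 lower, and the species did not overlap in 103 genes (21%), 51 (10.4%) with Hemigymnus and 52 (10.6%) with Labrichthys above. The median absolute log2 fold change over all tested features was 0.54 for Ldim_g genes and 0.43 for ENSONIT transcripts. The coefficient of variation between fish was 0.193 for the former and 0.215 for the latter. These tables count the same fish again, so they repeat the counting and not the animals, and the 2 sets of identifiers could not be matched to each other from the files.

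**Figure D3:**
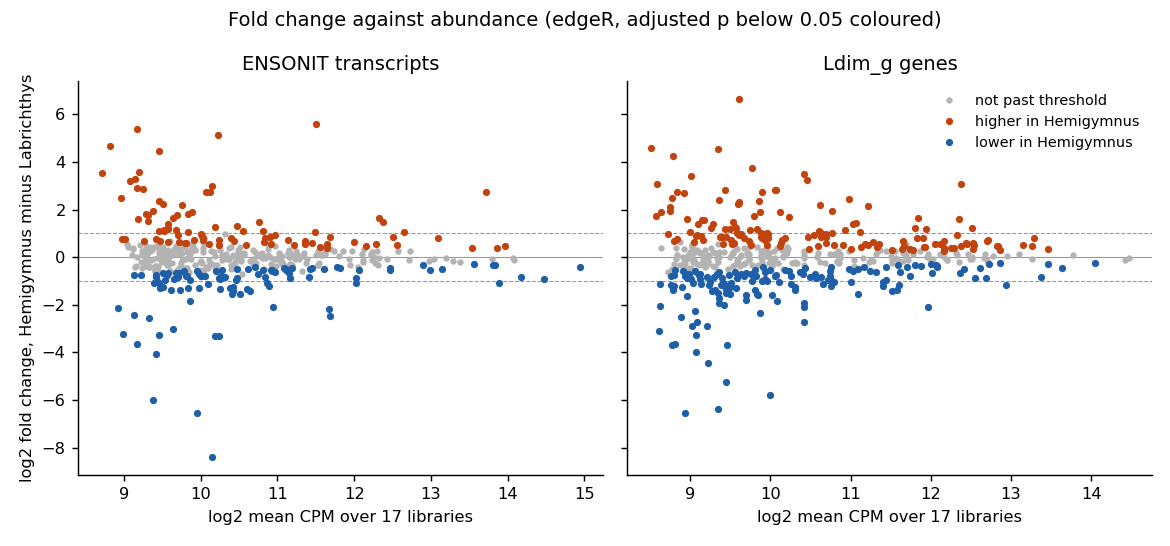
Log2 fold change (Hemigymnus minus Labrichthys) against log2 mean CPM for 450 ENSONIT transcripts (left) and 491 Ldim_g genes (right), with features past an adjusted p of 0.05 in colour and dashed lines at 2-fold. Coloured points lie on both sides of 0 in like numbers (89 and 104, 144 and 152), and points beyond 2-fold are most frequent at low abundance. The filter keeps features of low mean that are high in a single species, so that pattern follows in part from the filter.

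The transcript ENSONIT00000016607.1 had the widest gap in mean CPM among those that separated the species with higher levels in Hemigymnus. Its level there ran from 19314 to 25643 CPM (median 21672), and in Labrichthys from 2683 to 4693 CPM (median 3274). The lowest Hemigymnus fish was thus well above the highest Labrichthys fish, on raw counts of 209 to 535 and 44 to 83 per library. Means were 22498 ± 2428 CPM (SD, n = 9) and 3401 ± 657 CPM (SD, n = 8), a difference of 2.73 on the log2 scale (SE 0.12; adjusted p = 7.97e-18 by edgeR), or 6.65-fold. It took 1.25% of all ENSONIT counts in Hemigymnus and 0.176% in Labrichthys. On the scaling of 45 libraries the other 3 species lay between these, with means of 8951 ± 1694 CPM in Halichoeres (SD, n = 9), 7284 ± 1091 CPM in Thalassoma (SD, n = 10) and 8934 ± 1064 CPM in Coris (SD, n = 9), beside 20650 in Hemigymnus and 3102 in Labrichthys. Without the library labelled Halichoeres sample 2 or Thalassoma sample 4 the first means were 9215 ± 1601 (SD, n = 8) and 7151 ± 1067 CPM (SD, n = 9). The library labelled Halichoeres sample 2 itself had 6843 CPM of this transcript and that labelled Thalassoma sample 4 had 8486 CPM.

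ENSONIT00000005326.1 had the largest fold change upward among the transcripts that separated the species and had a count in every library. It ran from 1235 to 4118 CPM in Hemigymnus (median 1787) and from 126 to 482 CPM in Labrichthys (median 194). The groups did not overlap, as the choice required, and the highest value belonged to Hemigymnus sample 5, the next being 1911 CPM. Labrichthys libraries held 2 to 8 counts each, below the filter's minimum count of 10, so the transcript entered the test through Hemigymnus alone. It was then picked for its fold change, so the p that follows describes that choice and is not separate support. The change was 2.97 on the log2 scale (SE 0.28; adjusted p = 2.70e-10 by edgeR), from 249 counts in Hemigymnus and 37 in Labrichthys. Without Hemigymnus sample 5 it was 2.795 (edgeR adjusted p = 1.05e-10). The transcripts with the numbers just before and just after it had 247 and 239 counts in Hemigymnus and 42 and 41 in Labrichthys, and their counts over the 17 libraries did not differ from its own beyond an even split of reads. Whether the 3 carry separate signals cannot be told from these counts. Levels in the other species were low beside Hemigymnus, which had a mean of 1779 CPM on the scaling of 45 libraries. Their means on that scaling were 203 ± 89.5 CPM in Halichoeres (SD, n = 9), 336 ± 141 CPM in Thalassoma (SD, n = 10) and 73.2 ± 69.3 CPM in Coris (SD, n = 9).

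ENSONIT00000000803.1 showed the largest gain in CPM in Labrichthys among the transcripts that separated the species. Its level ran from 12335 to 21904 CPM in Hemigymnus (median 14301) and from 23932 to 36700 CPM in Labrichthys (median 31126). The groups did not overlap, as the choice required, though the gap between the highest Hemigymnus and the lowest Labrichthys fish was small beside the spread of each. The change was -0.91 on the log2 scale (SE 0.13; adjusted p = 4.91e-07 by edgeR), and Labrichthys had 1.88 times the level of Hemigymnus. It took 1.58% of ENSONIT counts in Labrichthys and 0.89% in Hemigymnus. On the scaling of 45 libraries the means were 27765 CPM in Labrichthys and 14758 CPM in Hemigymnus. Halichoeres, at 9626 ± 1792 CPM (SD, n = 9), and Thalassoma, at 9990 ± 1274 CPM (SD, n = 10), were below Hemigymnus. Coris, the other non-cleaner, had the lowest mean of the 5 species on that scaling, 6846 ± 1075 CPM (SD, n = 9).

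ENSONIT00000010907.1 had the largest fold change downward among transcripts that separated the species and had a count in every one of the 17 libraries. Hemigymnus fish ran from 93.2 to 392 CPM (median 192), on 2 to 5 counts per library, and Labrichthys fish from 1107 to 3647 CPM (median 2257), on 21 to 78 counts. All 8 Labrichthys fish lay above all 9 Hemigymnus fish, as the choice required. The change was -3.30 on the log2 scale (SE 0.29; adjusted p = 6.33e-11 by edgeR). The Hemigymnus counts lay below the filter's minimum count of 10, so the transcript entered the test through Labrichthys alone. It was then picked for its fold change, so this p describes that choice and is not separate support. The other species were lower still than Hemigymnus, which had a mean of 213 CPM on the scaling of 45 libraries. Their means on that scaling were 19.6 ± 32.2 CPM in Halichoeres (SD, n = 9), 35.3 ± 28.7 CPM in Thalassoma (SD, n = 10) and 48.9 ± 51.8 CPM in Coris (SD, n = 9).

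**Figure D4:**
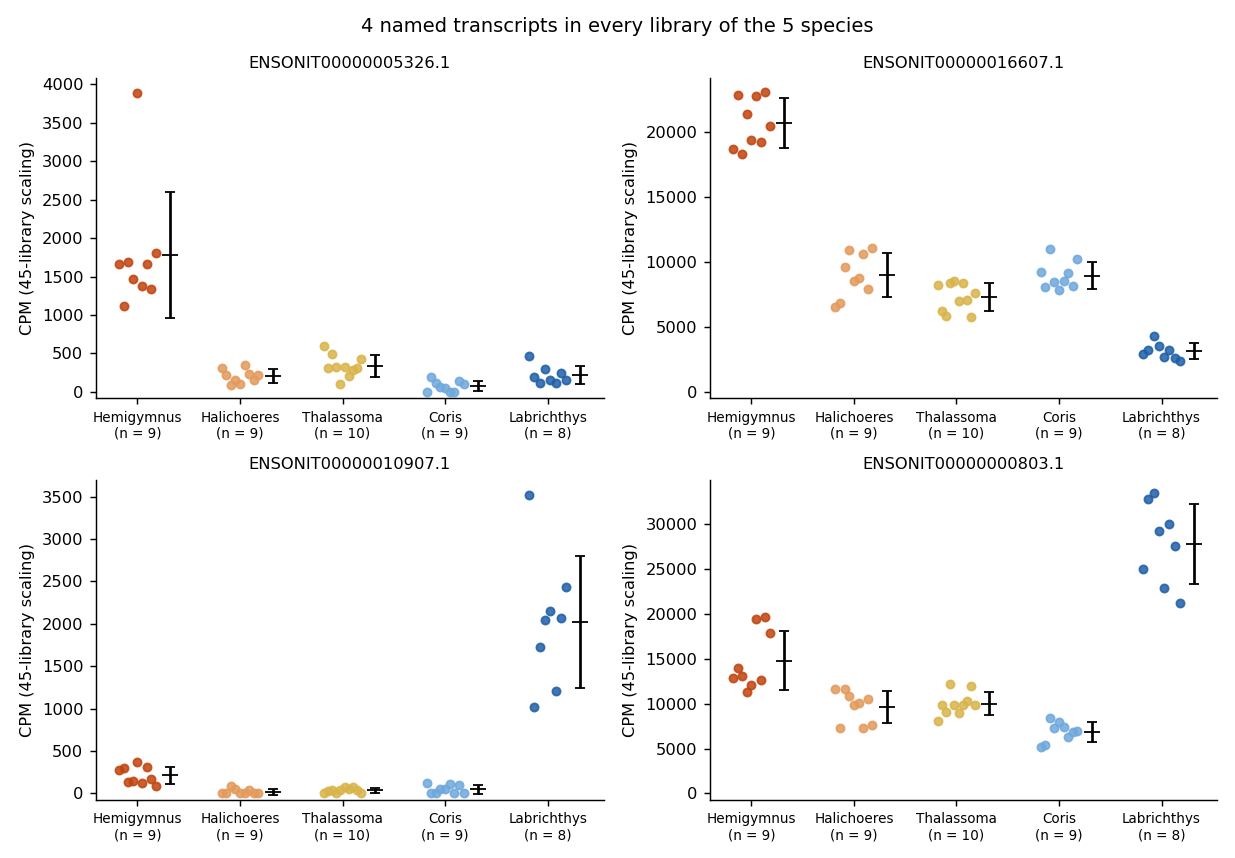
Level of 4 named transcripts (CPM on the scaling of 45 libraries, linear axes) in every library of the 5 species, with mean and SD in black. Hemigymnus stands above the other species for ENSONIT00000005326.1 and ENSONIT00000016607.1, and Labrichthys for ENSONIT00000010907.1 and ENSONIT00000000803.1, while Labrichthys is also below the other species for ENSONIT00000016607.1.

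A few transcripts had no count at all in one of the species. Among all ENSONIT transcripts, 35 with at least 20 counts in Labrichthys had 0 counts in the 9 Hemigymnus fish, and 13 with at least 20 counts in Hemigymnus had 0 in the 8 Labrichthys fish. The Labrichthys libraries held 303133 counts in all and the Hemigymnus libraries 242961. With every library thinned to 18301 counts the numbers were 12 and 14, so the excess in Labrichthys was not seen at equal depth per library. The thinned totals were then larger in Hemigymnus, at 164709 counts over 9 libraries, than in Labrichthys, at 146408 over 8. In the Ldim_g counts the numbers of such genes were 38 and 21 before thinning and 19 and 18 after it. The strongest case had 395 ENSONIT counts in Labrichthys, 12 to 120 in each of the 8 fish, against 0 in Hemigymnus. A floor of 3 counts over the 9 Hemigymnus libraries makes it at least 105.5-fold higher in Labrichthys (counting error only). It had 0 counts in Halichoeres and Coris and 7 in Thalassoma. The strongest case in the other direction had 85 counts in Hemigymnus, 6 to 15 in each of the 9 fish, and was at least 35.35-fold higher there on the same floor, taken over the 8 Labrichthys libraries. It had 18 counts in Halichoeres, 15 in Coris and 2 in Thalassoma.

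Set among all 5 species, most calls had Hemigymnus, Labrichthys or both outside the range of the other 3, as had most transcripts not called. Of the 89 transcripts called higher in Hemigymnus, the Hemigymnus mean alone lay outside the range of the means of Halichoeres, Thalassoma and Coris in 31 (34.8%). The Labrichthys mean alone did so in 24 (27%) and both in 27 (30.3%). Of the 104 called lower, it was Hemigymnus alone in 19 (18.3%), Labrichthys alone in 31 (29.8%) and both in 42 (40.4%). Over all 193 calls Hemigymnus alone lay outside in 50 (25.9%), Labrichthys alone in 55 (28.5%), both in 69 (35.8%) and neither in 19 (9.84%). For the 257 transcripts not called these shares were 15.2%, 19.1%, 30.4% and 35.4%. Without the libraries labelled Halichoeres sample 2 and Thalassoma sample 4 the counts over the 193 calls were 52, 54, 65 and 22. In 40 (20.7%) Hemigymnus and Labrichthys were at opposite ends of the 5 species. The same held for 10 of the 257 transcripts that were not called (3.89%). Among the 84 calls of at least 2-fold, 29 (34.5%) had the species at opposite ends. Without those libraries the species were at opposite ends in 36 of the 193 calls. These are counts of where means fell and carry no test. The calls were chosen for a gap between Hemigymnus and Labrichthys in these same fish. Their larger shares outside the range and at opposite ends, beside the transcripts not called, therefore follow in part from that choice.

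A contrast by cleaning status can also be drawn in fish that take no part in the comparison above, the mean of Halichoeres and Thalassoma against Coris. It called 237 of 556 transcripts (42.6%), 124 (22.3%) higher and 113 (20.3%) lower in the cleaners (edgeR quasi-likelihood test). Of the 400 transcripts tested in both contrasts, 157 were called for Hemigymnus against Labrichthys, 171 for the other fish, and 77 for both. The other fish called 49.0% of the 157, close to the 42.75% that they called of all 400. These 77 pointed the same way in 34 and opposite ways in 43. The 34 were 21.7% of the first list and 19.9% of the second, 14 of them higher and 20 lower in the cleaners. Over all 400 transcripts the direction was shared by 178 (44.5%), and over the 157 calls by 67 (42.7%). Across transcripts the log2 fold changes had r = -0.17 (n = 400 transcripts, which share libraries, depth and reference). Without the libraries labelled Halichoeres sample 2 and Thalassoma sample 4 the other contrast called 265 transcripts, and of the calls shared with Hemigymnus against Labrichthys 33 pointed the same way and 44 opposite ways. Of the 34, 6 were at least 2-fold higher in the cleaners of both contrasts and 0 at least 2-fold lower (edgeR, and at an unadjusted p below 0.05 in both, 6 and 0). Changes of at least 2-fold in both contrasts also occurred in opposite directions among the 43. For Hemigymnus minus Labrichthys and the other contrast in turn, these log2 fold changes were -5.98 and 4.29, -2.48 and 2.55, -1.01 and 1.02, 1.91 and -1.32, and 2.25 and -1.74.

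**Figure D5:**
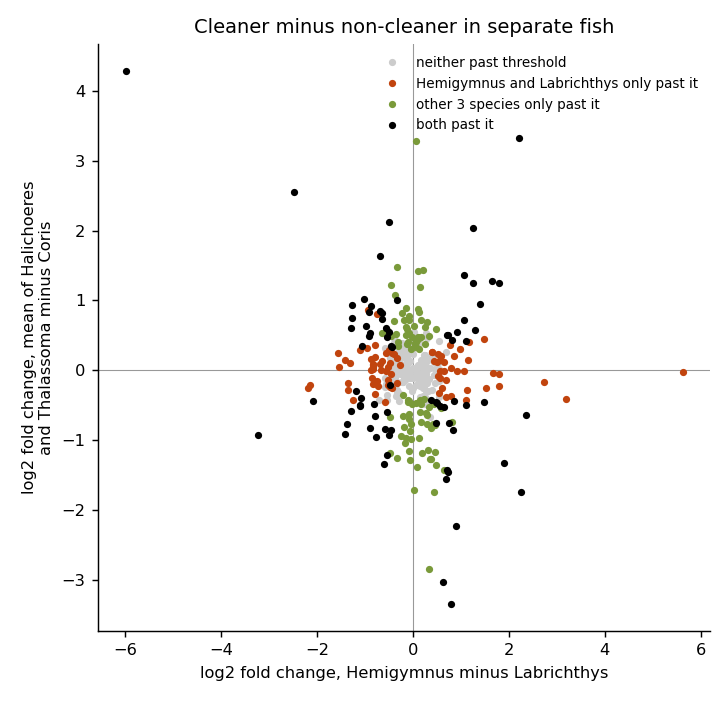
Log2 fold change of cleaner minus non-cleaner for 400 ENSONIT transcripts, Hemigymnus minus Labrichthys on the horizontal axis and the mean of Halichoeres and Thalassoma minus Coris on the vertical axis, with colours for the contrasts past an adjusted p of 0.05. Of the 77 black points past it in both, 34 lie in the quadrants of shared direction and 43 in those of opposite direction.

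The difference between these contrasts was itself tested across all transcripts in a fit of 45 libraries, and 351 of 719 (48.8%) were past the threshold (edgeR quasi-likelihood interaction test, adjusted p below 0.05), or 363 without the libraries labelled Halichoeres sample 2 and Thalassoma sample 4. The named transcripts were chosen for their gap between Hemigymnus and Labrichthys, so this test is not given for them. In the other fish, which took no part in that choice, ENSONIT00000016607.1 was not past the threshold (-0.16 on the log2 scale for cleaners minus Coris, edgeR adjusted p = 0.167). ENSONIT00000000803.1 was higher in the other cleaners than in Coris, by 0.50 on the log2 scale (edgeR adjusted p = 8.22e-05), where it was lower in Hemigymnus than in Labrichthys. ENSONIT00000005326.1 and ENSONIT00000010907.1, with 130 and 20 counts in all in the other 28 fish, had too few counts to be tested there.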

How the data were processed

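Forebrain slices of single fish were read by 3′ tag sequencing, in which poly-dT priming places reads near the end of transcripts, per the labels' protocols. The authors deposited raw read counts, 2 tables per fish, judged unnormalized from whole values and unequal totals. Cutadapt 2.8, BWA and SAMtools appear in the submitters' processing notes without their roles; the reference and the counter are not given in these sources. No molecular identifiers are mentioned, so a molecule copied in PCR can count repeatedly, and floors cover counting error only. In the Ldim_g set lines that name no gene held 94.7% of the reads of the 17 libraries. They were left out of library sizes and tests. The unnamed line of the ENSONIT tables held 0 reads. Totals there were 18301 to 53987 counts, where the Ldim_g tables of the same fish held at least 370986 reads each. That 0 thus does not give the share of reads left uncounted in the ENSONIT set.

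Counts were analysed with edgeR 4.0.16 in R 4.3.3: filterByExpr by species (minimum count 10, minimum total 15), TMM, a quasi-likelihood fit on the 17 libraries and Benjamini-Hochberg adjustment. SE is the log2 fold change over the root of F. Library measures were tested by two-sided exact permutation over 24310 regroupings. Alternatives included DESeq2 1.42.0. The code was tested on simulated data. No pair of libraries within a species was identical (highest chi-square p = 0.000228 over 36 and 28 pairs in each set), so all counted as separate fish. The labels state no batch.

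Per direction the named transcripts are those with no overlap between species and either the largest fold change with a count in every library or the largest CPM difference. The members, lists and tests were chosen with earlier results of these data known; the interaction test, the thinning of absent transcripts, the libraries of overlapping depth, the joining of evenly split transcripts the single-fish genes and the species positions without 2 libraries were added after these counts were seen.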

Additional observations from a re-analysis of the deposited data

Results flagged for a closer look

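Single fish were compared with the rest of their group by the gap to the nearest fish over the whole range, against Dixon's 95% critical value. 1 of 26 groups of library measures and 1 of 8 groups of named transcripts exceeded it, where chance gives about 1 in 20. Hemigymnus sample 1 had an unaligned share of 48.8%, below the other 8 fish of its species. Hemigymnus sample 5, the shallowest of the 17 libraries, had 4118 CPM of ENSONIT00000005326.1, where the other Hemigymnus fish had 1235 to 1911 CPM.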

How the results depend on the processing

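No feature called in the 17 libraries was called in the opposite direction in any alternative fit of that comparison, and the 4 named transcripts kept direction and threshold under all 26 fits each. These 4 had been chosen for a full gap between the species in the same fish. DESeq2 size factors, the upper quartile and the DESeq2 Wald test gave 191 to 195 ENSONIT calls, against 193 (88 to 97 lower, against 104), and 291 to 296 Ldim_g calls, against 296. Without a filter 1499 of 21501 ENSONIT transcripts (6.97%) were called (534 higher, 965 lower), with the median of the shared transcripts moved by -0.15. Among Ldim_g genes 1677 of 13316 (12.6%) were called (644 higher, 1033 lower), with the median of the shared genes moved by -0.13. With a mean of at least 2 counts in both species 324 of 1368 transcripts (23.7%) were called (147, 177). The same filter gave 506 of 1418 genes (35.7%; 244, 262). The called share, 42.9% and 60.3% in the main fits, thus depended on the filter. The fit of 45 libraries gave 292 ENSONIT calls, 141 of them higher, of 719 tested. With all libraries thinned there were 96 (49, 47) of 277 and 193 Ldim_g calls of 341, 97 of them lower. A minimum of 2-fold left 84 (45, 39) and 135 (63, 72).

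Leaving out 1 library at a time gave 159 to 212 ENSONIT calls (73 to 98 higher, 85 to 114 lower) and 264 to 314 Ldim_g calls (124 to 152, 140 to 163), and log2 fold changes of 2.795 to 3.13 for ENSONIT00000005326.1, 2.67 to 2.79 for ENSONIT00000016607.1, -3.39 to -3.13 for ENSONIT00000010907.1 and -0.98 to -0.85 for ENSONIT00000000803.1. With Hemigymnus sample 4 there were 153 calls of 440 transcripts (34.8%) and 255 of 491 genes (51.9%), and 35 transcripts separated all fish, against 59. With it the differences of Hemigymnus minus Labrichthys reversed for the share of counts in the 10 most abundant features (0.152 and 0.497 percentage points in the ENSONIT and Ldim_g sets, against -1.02 and -0.174) and for the share of reads in genes (0.893 against -0.396). The difference in low-quality reads became -0.450 points (exact permutation adjusted p = 0.0743), that in total reads -244860 (adjusted p = 0.0406) and that in thinned ENSONIT transcripts -549 (adjusted p = 0.0478). By medians the ENSONIT total differed by -9312 (exact permutation adjusted p = 0.0761) and the share of the 10 most abundant by -1.04 points (adjusted p = 0.0628). The cause of these shifts was not tested.

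Sample numbers recur in both species for 7 fish, but same-numbered fish did not deviate together (r from -0.17 to 0.16 for ENSONIT and -0.17 to 0.06 for Ldim_g), and 2 and 0 Hemigymnus libraries matched their own number best. The replicate block on these numbers gave 158 ENSONIT (35.1%) and 250 Ldim_g calls. In the 4 Hemigymnus and 6 Labrichthys libraries whose totals lie in the range both species cover (means 33753 and 32640 counts), 184 of 560 transcripts and 328 of 645 genes were called, with 116 of the 193 and 234 of the 296 among them. Joining evenly split transcripts with adjoining numbers gave 190 calls of 447. For the other 3 species, and for the 34 transcripts called the same way in both contrasts, no alternative moved the count by over 1.5 times, with 33 or 34 shared calls. With the filter used, the lowest mean of a tested transcript was 420.3 CPM; the looser filter on a mean of 2 counts tested 1368 transcripts.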

Other observations

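A pair of Ldim_g genes outside the tested set was high in the same single fish. One had 559 counts in Labrichthys sample 8, 1.14% of that fish's gene counts, 6 counts in the other 7 Labrichthys fish and 0 in Hemigymnus. Across the series its next highest library was the one labelled Thalassoma lunare sample 4, with 84 counts, and no other library had more than 4. The second gene had 146 counts in Labrichthys sample 8 and 61 in the library labelled Thalassoma sample 4, and at most 2 in any other library. Both were picked after their values were seen, and what they encode is not given in the files. The second gene was searched for by its count in Labrichthys sample 8, among genes almost without counts in the other Labrichthys fish. That both were high in that fish therefore follows from the search.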
